A study of Mus musculus with 6 samples.

Results

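Skeletal muscle genes and myoglobin were examined in the whisker pad, the facial skin that bears the vibrissae, of mouse embryos at E12.5. The list holds 38 genes, chosen by gene symbol and with earlier results of these data known. It covers the myogenic transcription factors, the proteins of the contractile apparatus, the acetylcholine receptor of the nerve-muscle junction, and myoglobin (Mb). Of the 38 genes, 36 had at least 1 probe set on the Affymetrix MOE430A array, 47 probe sets in all, among 12393 genes measured. Neb and Mybpc1 had none in the platform annotation. The series holds 3 homozygous Trps1 mutant and 3 wild-type embryos of that age, each giving 1 array of total RNA from its whole whisker pads. The study asked for the targets of Trps1, a transcriptional repressor with a GATA-type zinc finger, in the vibrissae. The labels do not say which change the mutant allele carries, on which strain background the embryos were, or what their sex was. The brightest probe set stands for each gene, and a difference is the mutant mean of log2(signal + 16) minus the wild-type mean.

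Muscle fibres arise from precursors that express Pax3 or Pax7 and then switch on the basic helix-loop-helix factors Myf5 and Myod1. Myogenin (Myog) and Myf6 act later, when the myoblasts leave the cell cycle, fuse and begin to make actin, myosin, troponin and titin. These factors bind short DNA motifs called E-boxes in the control regions of muscle genes. The muscles of the face come from cranial mesoderm that enters the branchial arches, and some of them attach to the vibrissa follicles and move the whiskers. Myoglobin is the oxygen-binding haem protein of heart and skeletal muscle.

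Mb and Myog are the members whose values separated the groups, and the genes' start regions are shown here for that reason. The windows run from 250 bases before to 50 bases after an annotated start (RefSeq, build GRCm38.p6), and Mb has 3 such windows, of which 1 is printed. Capitals mark the E-box CANNTG and a GATA site, which is GATA with A or T before it and A or G after it, each searched on both strands.
Mb, chr15:77022738-77023037, minus strand: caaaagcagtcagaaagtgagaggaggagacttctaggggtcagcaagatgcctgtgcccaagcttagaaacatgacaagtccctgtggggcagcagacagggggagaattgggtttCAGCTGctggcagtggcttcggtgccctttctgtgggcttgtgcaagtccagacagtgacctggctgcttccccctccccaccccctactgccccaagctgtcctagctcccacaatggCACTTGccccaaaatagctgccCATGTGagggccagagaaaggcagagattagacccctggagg
Myog, chr1:134289754-134290053, plus strand: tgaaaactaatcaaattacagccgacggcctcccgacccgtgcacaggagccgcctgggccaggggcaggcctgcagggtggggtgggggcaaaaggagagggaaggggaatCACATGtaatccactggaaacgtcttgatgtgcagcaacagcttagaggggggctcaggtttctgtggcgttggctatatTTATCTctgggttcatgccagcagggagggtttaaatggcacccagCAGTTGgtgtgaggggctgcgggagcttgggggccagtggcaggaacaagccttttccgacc
The printed Mb window held 3 E-boxes and 0 GATA sites, and the Myog window held 2 E-boxes and 1 GATA site, TTATCT, with no overlap between the motifs. A window with at least 1 E-box CANNTG is common, at 72.3% of all 32851 windows and 30 of the 34 windows of 30 member genes. The form CAGCTG was in 16.3% of all windows and in 15 of the 34 member windows. A GATA site was in 29.8% of all windows and in 5 of the 34. These matches describe letters in the reference sequence, and binding was not measured.

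The arrays had been scaled to one level before deposit, with median signals of 90.4 to 101.4. The 27 control probe sets for the bacterial genes Dap, Lys, Phe, Thr and Trp read 0.4 to 33.8. The highest of them read 33.8 on mutant replicate 2 and 23.7 to 29.7 on the other arrays. For all arrays, 33.8 is used below as the upper limit of background. Of 16 markers of whisker pad epithelium, placodes and facial dermis, 11 were above that limit on all 6 arrays, while Shh, a signal made by placodes, was above it on none. Trps1 itself, by its single probe set, read 1297.3, 1491.9 and 1506.7 in mutant pads, against 807.6, 1061.4 and 748.1 in wild-type pads (difference 0.72, SE 0.18, limma adjusted p = 0.603). The labels do not say where the mutation lies, so this level does not check them. Xist, the RNA of the inactive X chromosome, read 77.9 to 93.7 in mutant pads and 49.3, 44 and 461.5 in wild-type pads, and the Y-linked gene Eif2s3y read 215.3 to 272.3 in mutant pads and 210.2, 207.3 and 11.9 in wild-type pads. By both genes wild-type replicate 3 read as female and no other array did. Of the 15 members named by rule, Acta1 and Cdh15 changed sign when that array was left out, and their values without it stand below. Mutant replicate 3 had the lowest median signal, the most probe sets at or below the limit of background (29.3%, against 27.0% to 28.9% on the others), and a ratio of 3' to 5' actin signal, a measure of RNA integrity, of 1.35, against 1.07 to 1.19 on the others. Its part in the results was not tested beyond the values without that array.

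Most skeletal muscle genes read at background in these whisker pads. Only 7 of 36 members lay above the highest bacterial control on all 3 mutant arrays and 6 on all 3 wild-type arrays, against 69.3% and 69.5% of all genes measured. Pax7, Acta1, Acta2, Tnnc1 and Des were above it on all 6 arrays. Another 15 members were above it on 1 to 5 arrays, and 16 members, 44.4% of those measured, on none, against 13.8% of all genes. Those 16 were Myf5, Myf6, Myh3, Myh8, Myl1, Tnnt1, Tnnt2, Tnnc2, Tnni1, Tnni2, Chrnd, Chrng, Casq2, Mybph, Ankrd1 and Myom2, none of which exceeded a signal of 33.3. They include the embryonic and perinatal myosin heavy chains (Myh3 and Myh8) and troponin I of slow and fast fibres (Tnni1 and Tnni2). A signal at background is no proof that the RNA is absent, since a probe set can be insensitive and muscle may be a small part of a whole pad. In such bulk RNA, fewer muscle cells and less RNA per cell cannot be told apart.

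**Figure D1:**
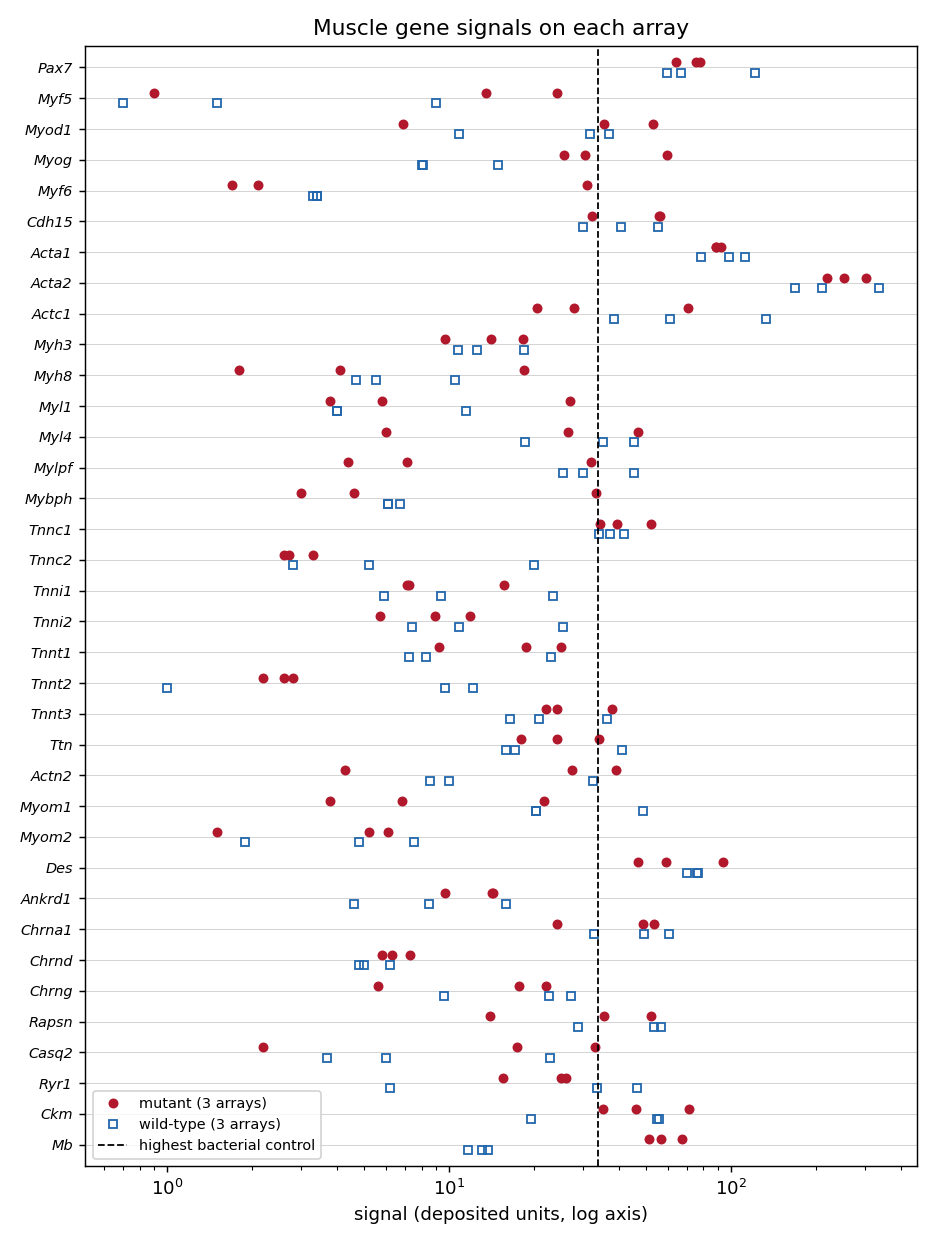
Signals of 36 muscle genes at their brightest probe set on a log axis, in order of role, with the 3 mutant arrays as filled circles above the 3 wild-type arrays as open squares in each row. The dashed line is the highest bacterial control, 33.8, and 16 genes lie wholly to its left, while Mb has its mutant arrays to the right and its wild-type arrays to the left.

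In the comparison of mutant with wild-type pads, the members did not move together. Mb and Myog were higher in all mutant pads than in any wild-type pad, Mylpf and Myom1 were lower at an unadjusted p under 0.05 with overlapping groups, and 32 members had no such difference. By limma with Benjamini-Hochberg adjustment, 0 of 36 members passed an adjusted p of 0.05, and 0% of all 12393 genes did. At an unadjusted p under 0.05, 2 members were higher, against 2.89% of all genes, and 2 were lower, against 2.49%. Together that is 11.1% of the members and 5.37% of all genes. Because the members were chosen with earlier results of these data known, their shares are a description and no test of the list. The count of lower members was 0 without mutant replicate 1, mutant replicate 2 or wild-type replicate 1, and 1 without wild-type replicate 3. The groups did not overlap in 2 members, both higher in mutant pads, or 5.56% of the 36. Among all genes 5.54% were higher and 4.83% lower without overlap, 10.4% in all. The median difference was 0.04 over the 36 members, with values of -0.032 to 0.086 when single arrays were left out, and 1.684e-04 over all genes. Among the 11 members with a mean signal above the highest bacterial control, where Mb stands only through its mutant arrays, it was -0.08, against -4.966e-04 over the 9445 genes that met the same condition. In all, 20 members had a positive and 16 a negative difference, and 26 had an absolute difference under 0.3. The median standard error over the 36 members was 0.26.

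**Figure D2:**
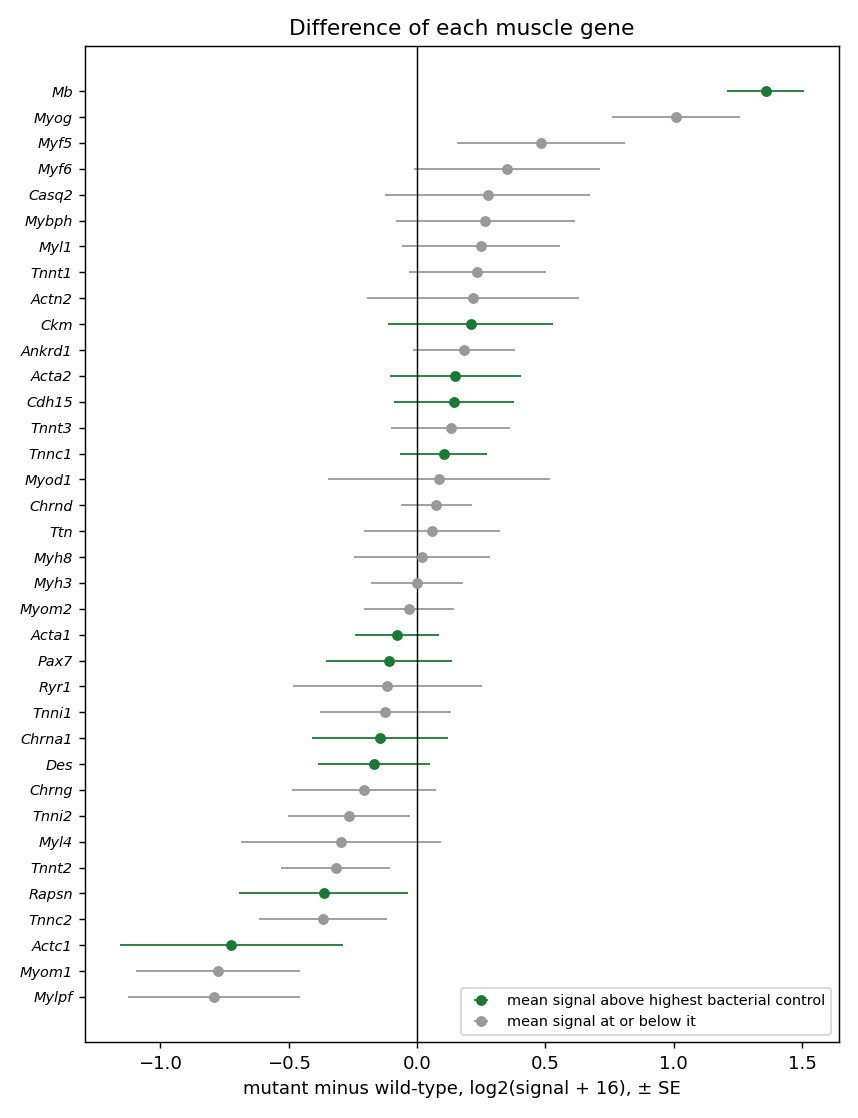
Mutant minus wild-type difference of each of 36 muscle genes on the log2(signal + 16) scale, with bars of 1 standard error, in order of size. Mb at 1.36 and Myog at 1.01 lie at the top and Mylpf at -0.79 at the bottom, and most others lie within 1 standard error of 0, both the brighter genes (green) and those near background (grey).

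Myoglobin read 66.9, 56.7 and 51.2 in the mutant pads, against 13.1, 13.8 and 11.7 in the wild-type pads. The means were 58.3 ± 7.97 in mutant and 12.9 ± 1.07 in wild-type pads (SD, n = 3 each). Each mutant array was above the highest bacterial control and each wild-type array was below it, and the lowest mutant signal was 3.71 times the highest wild-type signal. Because the wild-type values sit in the background, the ratio at this probe set has a lower bound only. The geometric mean of the mutant signals was 1.71 times 33.8, a bound for these arrays that leaves out sampling error. The fitted difference of Mb, 1.36 (SE 0.15), had a limma adjusted p = 0.165 over all genes. It did not pass the threshold, and over the alternative settings the adjusted p ranged from 0.149 to 0.726. With signals under 32 set to 32, which levels the wild-type values, the difference was 0.86 (limma adjusted p = 0.488). By exact permutation of the 6 values the two-sided p was 0.1, which is the minimum for groups of 3 arrays.

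The second probe set of Mb did not share this difference. It read 34.4, 5.9 and 8.3 in mutant pads, against 6.4, 10.7 and 15.7 in wild-type pads. Only mutant replicate 1 rose above the highest bacterial control, by a small margin, and the groups overlapped (difference 0.17, SE 0.33, limma adjusted p = 0.995 over all probe sets). This probe set thus read at background on the other 5 arrays, and the myoglobin result rests on a single probe set. When both probe sets were averaged the difference was 0.76 (limma adjusted p = 0.726). Leaving out any single array gave differences of 1.28 to 1.43, and without wild-type replicate 3, the female-reading array, it was 1.33.

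Neither Mb probe set is in the authors' deposited table of 65 probe sets, and none of the other 45 member probe sets is in it. Under the thresholds the study states (an unadjusted p of at most 0.05 and at least 1.5-fold), the methods' unpaired test gave 186 genes here, or 1.5% of all. Mb and Myog were the 2 members among the 96 higher ones (0.775% of all genes), and 0 members were among the 90 lower ones (0.726%). That test was run on log2(signal + 16) at the brightest probe set of each gene, while the sources used here do not give the normalisation or filter behind the authors' deposited table. After Benjamini-Hochberg adjustment 0 genes (0%) passed that test.

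Markers of other cells that make or carry a haem protein, or that contain muscle proteins, were set beside the myoglobin values. The heart muscle list of 12 genes summed to 347.4 to 393.2 in mutant pads and 309.6 to 410.6 in wild-type pads, with Myh6, Myl7 and Tnni3 below the highest bacterial control on all arrays. Smooth muscle and pericyte markers, 13 genes, summed to 1517.5 to 1793.1 in mutant pads and 1432.1 to 1754.1 in wild-type pads, with Cnn1, Myh11 and Lmod1 below that control on all arrays. In both lists the summed signals overlapped between groups. Red blood cell markers, 8 of 10 measured, summed to 23116.5 to 26165.4 in mutant pads and 24440.7 to 28847.1 in wild-type pads, also overlapping. The globins Hba-x, Hbb-bh1 and Hbb-y made up most of that sum, and their groups overlapped at their brightest probe sets. Within the same list Slc4a1, the anion exchanger of red cells, read 166.6, 172.9 and 139 in mutant pads, against 264.3, 237.1 and 223.5 in wild-type pads (difference -0.56, SE 0.16, limma adjusted p = 0.705). Gata1, the erythroid transcription factor, read 38.3, 44.5 and 43.9 in mutant pads, against 53.2, 51.9 and 81.2 in wild-type pads (difference -0.40, SE 0.19). Both were thus lower in every mutant pad than in any wild-type pad, and the other 6 markers overlapped at their brightest probe sets. That is 25% of the list without overlap, against 10.4% of all genes, of which 4.83% were lower. The dimmer Slc4a1 probe sets overlapped between groups, with differences of -0.53 and 0.05. Among the dimmer globin probe sets, Hbb-y differed by -0.17 and -0.27 and Hbb-bh1 by -0.39, each lower in mutant pads without overlap. The remaining Hbb-bh1 probe set overlapped (difference -0.29). The dimmer Epb42 probe set was also lower without overlap (difference -0.59), with all values below the highest bacterial control, while its brighter one differed by 0.10. The 13 measured markers of the skeletal muscle lineage summed to 366 to 387.7 in mutant and 333.7 to 393.6 in wild-type pads. Cartilage markers, 7 genes, summed to 1176.7 to 2108.6 in mutant and 1333.5 to 1926.4 in wild-type pads, with Matn1 below the control throughout. Of these cell-type lists the neuron and nerve list of 10 genes alone separated the groups, at 2711.7 to 3064 in mutant pads and 2091.9 to 2279.1 in wild-type pads, with Snap25 below the control on all arrays. The stathmin Stmn2 held most of that gap, at 1146.9, 983.6 and 1237.4 in mutant pads, against 661.2, 622 and 652 in wild-type pads. Its dimmer probe set overlapped between groups (difference 0.35, SE 0.19). Nefm was also higher in every mutant pad, at 241.7, 139.6 and 161.5, against 77.8, 58.3 and 98.7 in wild-type pads. The Nefm difference was 1.05 (SE 0.25, limma adjusted p = 0.596). Nefl differed by 0.67 (SE 0.25) with overlapping groups. Elavl3, an RNA-binding protein of neurons, went the other way without overlap, at 5.4, 9 and 41.7 in mutant pads, against 60.5, 56.1 and 67.9 in wild-type pads (difference -1.30, SE 0.35, limma adjusted p = 0.68). The other Elavl3 probe sets read at background, with overlapping groups and differences of 0.026 and 0.11, so this fall rests on a single probe set. Of the 10 neuron genes 6 had a positive and 4 a negative difference. At an unadjusted limma p under 0.05, 3 were higher and 1 was lower, or 40% of the list against 5.37% of all genes. The groups did not overlap in 30% of the list, against 10.4% of all genes, and 0 genes of the list passed after adjustment. The red cell, neuron and other lists were chosen with earlier results of these data known, so their shares do not test the lists. The part of the red cell and neuron genes in the myoglobin difference was not tested.

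Of the transcription factors of myogenesis, Myog was the only one whose groups separated. Myogenin drives the terminal differentiation of myoblasts. It read 25.6, 59.2 and 30.5 in mutant pads, against 8, 14.9 and 8.1 in wild-type pads. All mutant values were above all wild-type values, but 2 of the 3 mutant arrays lay below 33.8, the highest bacterial control of any array. All wild-type arrays also lay below it, so no bound on the ratio can be given against that limit. The highest control of the same array was 24.5, 33.8 and 23.7 on mutant replicates 1 to 3. Each mutant value was above its own array's control, on replicate 1 by a small margin. The wild-type values were below theirs, which were 25.8, 29.7 and 26.2. The Myog difference was 1.01 (SE 0.25, limma adjusted p = 0.603), and the exact permutation p was again the minimum of 0.1. Without mutant replicate 2, the 1 array above 33.8, the difference was 0.75, and with signals under 32 set to 32 it was 0.30 (limma adjusted p = 0.999).

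The factors that act before or beside myogenin showed no such separation. Myod1, which commits cells to the muscle lineage, read 53, 6.9 and 35.5 in mutant pads, against 31.6, 10.9 and 37.1 in wild-type pads. Replicate 2 was the lowest array in both groups, and the groups overlapped (difference 0.09, SE 0.43, exact permutation p = 0.9). Myf5, the earliest of these factors in the mouse embryo, read 0.9, 24.1 and 13.5 in mutant and 1.5, 0.7 and 9 in wild-type pads, all at background. Myf6, also called MRF4, read 30.9, 2.1 and 1.7 in mutant and 3.4, 3.3 and 3.4 in wild-type pads, likewise all at background. A single mutant array set the mean of Myf6, and its difference of 0.35 became -0.11 without that array.

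Pax7, the paired-box factor of muscle progenitors that is also made by neural crest cells, was above background on every array. It read 75.3, 63.7 and 77.8 in mutant pads, against 66.5, 122 and 59.4 in wild-type pads. The groups overlapped, wild-type replicate 2 was the highest of the 6, and the difference was -0.11 (SE 0.24), or 0.16 without that array. M-cadherin (Cdh15), an adhesion protein of myoblasts and satellite cells, read 56, 55.6 and 32.3 in mutant pads, against 40.8, 55 and 29.8 in wild-type pads. In both groups replicate 3 was the lowest, and the groups overlapped (difference 0.14, SE 0.23). Without wild-type replicate 3 the Cdh15 difference was -0.014, and without mutant replicate 3 it was 0.33.

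The genes of the contractile apparatus gave differences in both directions. The fast-fibre regulatory light chain Mylpf read 7.1, 4.4 and 31.8 in mutant pads, against 29.9, 25.4 and 45.4 in wild-type pads. Mutant replicate 3 lay among the wild-type arrays, and wild-type replicate 3 was the only array above the highest bacterial control. The difference was -0.79 (SE 0.33, limma adjusted p = 0.922). It was -1.17 without mutant replicate 3 and -0.56 without mutant replicate 2. With signals under 32 set to 32 it was -0.17. Myomesin 1 (Myom1), which links myosin filaments at the M-line, read 3.8, 6.8 and 21.8 in mutant pads, against 48.9, 20.4 and 20.3 in wild-type pads. Again mutant replicate 3 overlapped the wild-type values, and wild-type replicate 1 was the only array above the control (difference -0.78, SE 0.32, limma adjusted p = 0.914). Without wild-type replicate 1 the Myom1 difference was -0.50, and without mutant replicate 3 it was -1.05.

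The 3 muscle-type actins were among the brighter members, and their differences did not agree in sign. Cardiac alpha-actin (Actc1), the main actin of early skeletal as well as heart muscle, read 20.5, 27.9 and 70.3 in mutant pads, against 38.6, 60.7 and 132.8 in wild-type pads. Replicate 3 was the highest array in each group, and the groups overlapped at mutant replicate 3 (difference -0.72, SE 0.43, limma adjusted p = 0.941). Without wild-type replicate 3 the Actc1 difference was -0.32, and without mutant replicate 3 it was -1.09. Skeletal alpha-actin (Acta1) read 88.5, 88.4 and 92.4 in mutant pads, against 78.5, 98.8 and 112.2 in wild-type pads, a narrow spread in the mutant that lay inside the wild-type range (difference -0.08, SE 0.16). Without wild-type replicate 3 the Acta1 difference was 0.022.

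Smooth muscle alpha-actin (Acta2), which is also made by vessel walls and myofibroblasts, read 302.1, 252 and 219.4 in mutant pads, against 169.4, 210.4 and 334.7 in wild-type pads. The groups overlapped fully (difference 0.15, SE 0.26), and without wild-type replicate 3 the difference was 0.41. Its other probe set read 14.1, 19.5 and 22.8 in mutant pads, against 27.1, 24.5 and 43.9 in wild-type pads, with all mutant values below all wild-type values (difference -0.44, SE 0.20, limma adjusted p = 0.966 over all probe sets). The 2 Acta2 probe sets thus had opposite signs, and the dimmer one lay mostly at background. The brighter one is marked by its maker as shared between transcripts, and the actin genes are close paralogs, so signal from one may include RNA of another.

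**Figure D3:**
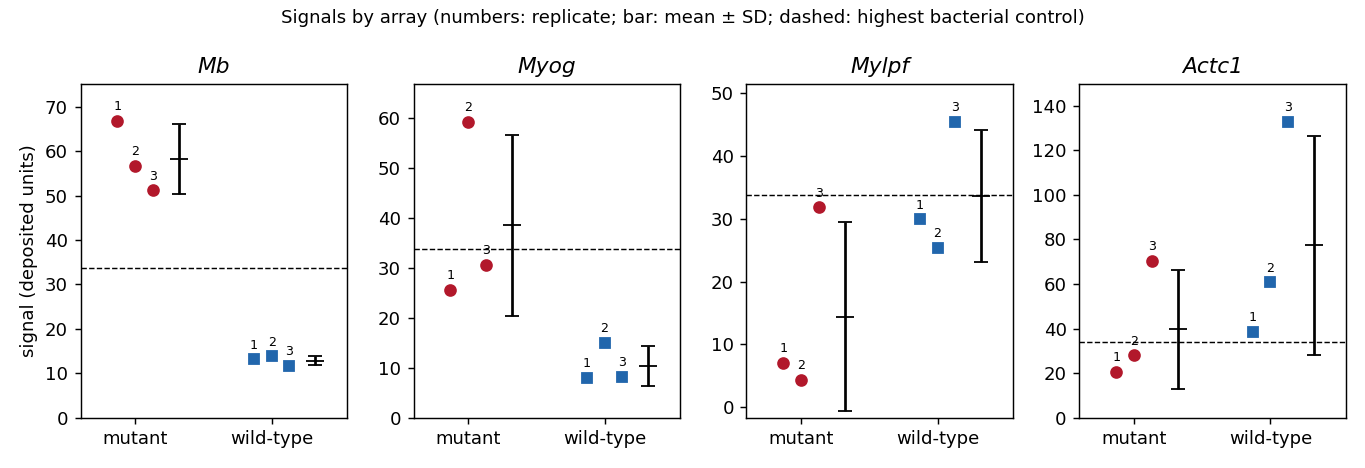
Signals of Mb, Myog, Mylpf and Actc1 on each array, mutant left and wild-type right, with replicate numbers, the mean ± SD (n = 3) and the highest bacterial control as a dashed line at 33.8. The groups are apart for Mb and Myog and overlap for Mylpf and Actc1, where replicate 3 is the highest array of each group.

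The other sarcomere members stayed near background and did not separate. Of the 7 troponin genes, which make up the calcium switch of the thin filament, 3 had a positive and 4 a negative difference, with values from -0.37 to 0.24. Tnnc1, troponin C of slow and heart muscle, was above background on all arrays, at 42.0 ± 9.19 in mutant and 37.6 ± 3.87 in wild-type pads (SD, n = 3 each). Among the 6 measured myosins and myosin-binding proteins, 4 differences were positive and 2 negative, and the highest signal was 46.7 in mutant and 45.4 in wild-type pads. Titin (Ttn), the elastic filament of the sarcomere, read 24.1, 34 and 18.1 in mutant pads, against 16, 17.1 and 41.2 in wild-type pads. Its groups overlapped and its difference was 0.06. Alpha-actinin 2 (Actn2), a Z-disc protein, was above background on 1 mutant array only, at 39.2.

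Desmin (Des), the intermediate filament of muscle cells, read 47, 93.5 and 59 in mutant pads, against 76.1, 69.8 and 76.7 in wild-type pads. The groups overlapped and the mutant values were the more spread (difference -0.17, SE 0.22). Its dimmer probe set gave a difference of 0.52 (SE 0.29) with overlapping groups, and both of its group means, 30.1 and 15.5 in mutant and wild-type pads, lay under 33.8. Muscle creatine kinase (Ckm), which buffers ATP in fibres, read 35.3, 71.3 and 46.2 in mutant pads, against 19.5, 55.7 and 54.9 in wild-type pads. Replicate 1 was the lowest in each group, and the groups overlapped (difference 0.21, SE 0.32). The calcium store protein Casq2 and the calcium release channel Ryr1 averaged 17.5 ± 15.4 and 22.1 ± 5.77 in mutant pads, and 10.8 ± 10.4 and 28.8 ± 20.6 in wild-type pads (SD, n = 3 each).

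At the nerve-muscle junction, the alpha subunit of the acetylcholine receptor, Chrna1, read 24.1, 53.3 and 48.8 in mutant pads, against 60.6, 32.7 and 49.3 in wild-type pads. The groups overlapped and the difference was -0.15 (SE 0.26). Rapsyn (Rapsn), which clusters the receptor, averaged 33.9 ± 19.1 in mutant and 46.2 ± 15.2 in wild-type pads (SD, n = 3 each). The delta subunit Chrnd and the fetal gamma subunit Chrng read at background on all arrays. Of the 3 Chrng probe sets, 1 dim set was lower in all mutant pads, at 9.6, 8.2 and 4.7 against 19.9, 17 and 10 in wild-type pads, while the brightest overlapped and the other had the opposite sign.

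The 11 members with mean signals above the highest bacterial control showed no shared pattern across the arrays. Each array's median deviation of these genes from their own means over the 6 arrays was -0.05, 0.05 and 0.03 on mutant replicates 1 to 3, and -0.15, 0.08 and 0.12 on wild-type replicates 1 to 3. Their highest values fell on 5 of the arrays and their lowest on 4. Wild-type replicate 3, for example, held the highest value of 3 of the 11 and the lowest of 4. As a description, the 55 pairs of these genes had a median Pearson correlation of -0.04 over the 6 arrays after the group means were removed, and 45.5% of the pairs were above 0. For all pairs of the 9445 genes that passed the same condition the median was 0.0087, and 50.5% were above 0. All of these pairs share the same 6 arrays.

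**Figure D4:**
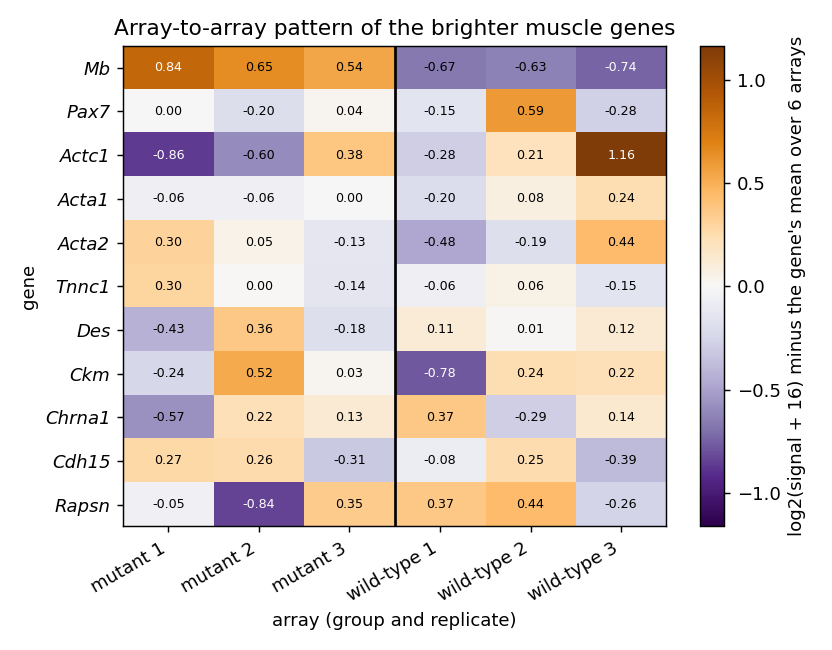
Deviation of each of the 11 brighter muscle genes from its own mean over the 6 arrays, in log2(signal + 16), with the mutant arrays left of the black line and the wild-type arrays right of it. The row of Mb changes colour at the line, and the other rows mix high and low arrays in both groups, as Actc1 does with its highest value of 1.16 on wild-type replicate 3.

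Further muscle genes were taken as 2 lists, also chosen with earlier results of these data known, so their shares are no test. Among 17 measured genes of head muscle progenitors and their regulators, 1 was higher and 2 were lower at an unadjusted limma p under 0.05, 0 passed after adjustment, and the median difference was 0.09. The 3 genes are 17.6% of the list, against 5.37% of all genes. The summed signal of the list was 2696.8 to 2786.6 in mutant pads and 2488.8 to 2631.4 in wild-type pads, so the sums did not overlap, although the 2 genes whose own groups did not overlap, Tcf21 and Eya2, were lower. These 2 are 11.8% of the list, against 10.4% of all genes. Bright genes weigh most in the sum, such as Pax3, with overlapping groups and means of 489.5 in mutant and 414.1 in wild-type pads. Tcf21 and Msc add little to it, as both read at background on all 6 arrays. Which cells made the RNA in this sum was not tested, so the sum is no measure of muscle progenitors. Of the 17 genes, 11 had a positive and 6 a negative difference. Tcf21, a helix-loop-helix factor of head muscle precursors, read 4.4, 12.9 and 3.3 in mutant pads, against 26.9, 15.8 and 31.7 in wild-type pads, all below the highest bacterial control. Eya2, a transcriptional cofactor of muscle and placode precursors, read 69, 50.4 and 53.1 in mutant pads, against 87.7, 118.5 and 92.8 in wild-type pads. All mutant values of Eya2 were below all wild-type values and above the control (difference -0.65, SE 0.18, limma adjusted p = 0.68). Its relative Eya1 read 89.8, 177.6 and 139.9 in mutant pads, against 45.3, 98.2 and 74.8 in wild-type pads, with overlapping groups (difference 0.78, SE 0.30, limma adjusted p = 0.902). Lgr5, a receptor for R-spondins, differed by 0.48 (SE 0.24) with overlapping groups.

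In the list of further contractile, metabolic and membrane genes, 48 of 56 were measured, and 3 were higher and 0 lower at an unadjusted limma p under 0.05, with 0 after adjustment and a median difference of 0.02. The 3 genes are 6.25% of this list, against 5.37% of all genes in both directions and 2.89% higher. The groups did not overlap in 6.25% of the list, against 10.4% of all genes. Cacng1, a subunit of the skeletal muscle calcium channel, read 61.8, 36.7 and 13.6 in mutant pads, against 10.7, 5.6 and 5.5 in wild-type pads. All mutant values were above all wild-type values, 2 of them above the highest bacterial control (difference 1.10, SE 0.33, limma adjusted p = 0.766). Actn3, the alpha-actinin of fast fibres, read 65.1, 68.3 and 35.1 in mutant pads, against 8.3, 38.2 and 11.3 in wild-type pads. The groups overlapped at wild-type replicate 2, and that array was the only wild-type one above the control (difference 1.09, SE 0.34, limma adjusted p = 0.798). Myl2, the regulatory light chain of heart and slow muscle and also a member of the heart list, read 42.2, 18.4 and 15.3 in mutant pads, against 11, 6.8 and 2.7 in wild-type pads. Its groups did not overlap, but 1 array alone was above the control (difference 0.81, SE 0.27, limma adjusted p = 0.846). The adult myosin heavy chain Myh1 differed by -0.80 (SE 0.38) with overlapping groups. Its means, 7.87 in mutant and 29.8 in wild-type pads, lay below the highest bacterial control. The dimmer Myh1 probe sets differed by 0.40 and -0.0091, also with overlapping groups. Of the 48 genes, 19 read at background on all 6 arrays.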

How the data were processed

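Total RNA of whole whisker pads from E12.5 embryos was hybridised as biotin-labelled cRNA to 1-colour MOE430A arrays, per the labels' protocols. The authors deposited 1 linear signal intensity per probe set and array, 22690 in all, already scaled between arrays, by a method not given in the sources used here. The authors' deposited table of 65 probe sets holds a fold ratio and normalized log2 group values from GeneSpring GX 10.0, as the submitters' design text states, and was only searched for members. The 64 control probe sets were left out, 16 was added and log2 taken. Probe sets were named by the platform annotation, with symbols renewed through gene numbers (GRCm38.p6). The 20380 probe sets with 1 gene gave 12393 genes.

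Groups came from the sample titles. The 2 groups were tested with limma 3.58.1 (lmFit and eBayes) in R 4.3.3, two-sided and with no covariate, and p-values were adjusted over all genes by Benjamini-Hochberg. The script was tested on simulated data. The members and gene lists were chosen with earlier results of these data known. Bacterial controls of the Dap, Lys, Phe, Thr and Trp sets served as background. The planned rule also counted 18 BioB, BioC, BioD and Cre probe sets, which read 78 to 14634.6 and were left out after seeing this. Members were named in full if they were Mb, Myod1, Myog, Myf5, Myf6 or Pax7, if their groups did not overlap or their unadjusted p was under 0.05, or if they were among the 8 with the highest mean signal. Up to 4 genes per further muscle list were named by smallest p. Genes and probe sets named beside these were chosen after their values were seen. Same-numbered arrays were not treated as pairs. The number of arrays limits the precision.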

Additional observations from a re-analysis of the deposited data

How the results depend on the processing

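Over 16 alternatives, Mb, Myog, Mylpf, Myom1, Actc1 and Myf5 kept their sign wherever a value could be had, and none of the 15 named members reached a limma adjusted p of 0.05. Fits without 1 array gave 1.28 to 1.43 for Mb and 0.75 to 1.18 for Myog. An offset of 1 gave 2.09 for Mb and 1.76 for Myog, and a floor of 32 gave 0.86 and 0.30. Without the 7542 dimmest probe sets, 1 gene was called in place of 0, and 8 of the 36 members had a value. Mb, Myog, Mylpf and Myom1 were not among them, so the 0 higher and 0 lower members at an unadjusted p under 0.05 follow from their removal. The median difference of the 8 was -0.094. At an unadjusted p under 0.05, higher members numbered 1 with a floor of 32, and lower members 1 with equal medians and 0 with quantile normalization, an offset of 1, a floor of 32 or the methods' t-test. Without both replicate 3 arrays, an alternative added after seeing the data, 5 members were higher and 4 lower, or 25% of the members against 7.92% of all genes. The median was 0.11 and Acta1 differed by 0.0041. Fits without 1 array gave 2 to 3 higher members, 0 to 3 lower members and medians of -0.032 to 0.086. With the 95th percentile of bacterial controls in place of the highest, 13 members were above background in mutant and 9 in wild-type pads, and with the spiked controls counted 0 in either group. Averaged probe sets gave -0.15 for Acta2 and 0.18 for Des, and without shared probe sets Acta2 differed by -0.44. Leaving out 1 array turned the sign of members with small differences, which ranged from -0.25 to 0.55 for Myod1, -0.11 to 0.59 for Myf6, -0.28 to 0.16 for Pax7, -0.20 to 0.022 for Acta1, -0.052 to 0.41 for Acta2, -0.39 to 0.0076 for Des, -0.13 to 0.38 for Ckm, -0.32 to 0.10 for Chrna1 and -0.014 to 0.33 for Cdh15. Where the cause of a change is not the smaller set of arrays or probe sets itself, the cause was not tested.

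The labels do not say that a shared replicate number pairs embryos. Over all genes the deviations of same-numbered arrays correlated at 0.036, 0.047 and 0.090, under the 0.1 used here as the level for pairs. Over the 4165 genes with a mean log2 value above 8 they correlated at 0.15, 0.23 and 0.31, above that level. In both gene sets each of the 6 arrays correlated best with its own number, a hint from the data of pairing that the labels do not give. Within numbers 1 to 3, the mutant minus wild-type differences were -0.58, -0.81 and -0.79 for Actc1, 1.51, 1.29 and 1.28 for Mb, -0.99, -1.02 and -0.36 for Mylpf, and -1.71, -0.67 and 0.058 for Myom1. In a fit that took that number as a block, 0 genes were called. The differences of Mb, Myog, Mylpf and Actc1 were 1.36, 1.01, -0.79 and -0.72, with limma adjusted p = 0.699, 0.699, 0.759 and 0.699. Myom1 differed by -0.78 (limma adjusted p = 0.858). At an unadjusted p under 0.05, 2 members were lower in that fit, as in the main one. Actc1 came ahead of Mylpf and Myom1 by adjusted p there, while in the main fit it came behind both.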
